A study of Mus musculus with 24 samples.

Results

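At the end of experimental overfeeding (ExpOF), on day 14 (d14), the hypothalamus of 6 overfed mice was compared with that of 5 control mice across all genes and across lists of genes that mark cell types or cellular processes, beyond Npy, Agrp and Stat3. The mice were taken from the sample labels: ExpOF d14 replicates 1 to 6 and Control d14 replicates 1, 2, 3, 5 and 6. They make up 11 of the 24 libraries of the series, each from 1 mouse. The library of Control d14 replicate 4 was left out. Its labelled RNA integrity number is 9.8, and the labels do not say which control mouse the study removed. All were male C57BL6/J mice, 18 weeks old, that carried a gastric catheter after surgery, were housed singly and could eat chow freely. ExpOF mice received a liquid diet with added sucrose (2.3 kcal/mL) into the stomach, and the flow was raised in steps until the energy given reached 150% by day 9. Controls received sterile water through the same kind of catheter at matched flow rates, so surgery, catheter and infused volume were shared by both groups. The labels place 3 ExpOF mice (replicates 1, 2 and 5) and 3 controls (replicates 2, 3 and 6) in a July cohort, and 3 ExpOF mice (replicates 3, 4 and 6) and 2 controls (replicates 1 and 5) in a September cohort. A second collection, 3 days after overfeeding had stopped (d14+3), holds 12 other mice.

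The hypothalamus gathers signals of energy stores such as leptin and insulin and adjusts feeding and energy use through neurons that release peptides. Peptides of the arcuate nucleus act on feeding directly, whereas hypocretin neurons of the lateral hypothalamus link feeding to arousal and somatostatin neurons restrain hormone release and local circuits. The tissue block also contains astrocytes, tanycytes and ependymal cells along the ventricle, oligodendrocytes, microglia, blood vessels and strips of meninges. In such whole-tissue samples, fewer cells of a type and less RNA per cell cannot be told apart.

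Total counts ranged from 8928182 to 33217143 in ExpOF mice and from 21162460 to 34848437 in the 5 controls. Hypothalamic identity genes were present in every library, with a summed level of 229.1 to 258.6 CPM (counts relative to the size of each library, after TMM scaling) in ExpOF mice and 184.2 to 244.7 CPM in controls. The labelled RNA integrity number had a mean of 9.75 ± 0.138 (SD, n = 6) for ExpOF mice and 9.20 ± 0.860 (SD, n = 5) in controls, a difference that did not pass a two-sided exact permutation test (p = 0.273). It lay on different sides in the cohorts, with 9.7 against 9.8 in July and 9.8 against 8.3 in September. The left-out Control d14 replicate 4 correlated with the mean of the other controls at 0.912 in log2 CPM, whereas each of the 5 controls used reached 0.988 or more with the rest of its group. A score for how far each library leans toward the profile of that left-out library was lower in ExpOF mice (-0.0954 ± 0.0224, SD, n = 6) than in controls (0.00598 ± 0.0890, SD, n = 5; two-sided exact permutation test, p = 0.0433). Control d14 replicate 1 had a score of -0.120, within the range of the ExpOF mice (-0.120 to -0.0576).

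Of 55471 genes counted, 18992 were expressed highly enough for the quasi-likelihood test of edgeR. Npy, the orexigenic peptide of arcuate neurons, was the only gene past an adjusted p-value of 0.05 (1 gene, 0.00527% of those tested), with a log2 fold change of -1.10 ± 0.12 (SE, adjusted p = 4.69e-05 by edgeR) and every ExpOF mouse (9.8 to 13.0 CPM) below every control (18.3 to 28.6 CPM). Agrp (-0.90 ± 0.18, adjusted p = 0.117 by edgeR) and Stat3 (0.17 ± 0.05, adjusted p = 0.135 by edgeR) did not pass. For Agrp this depended on the test, with an adjusted p = 0.00321 by DESeq2. Every ExpOF mouse (4.02 to 5.51 CPM) was below every control (5.93 to 11.2 CPM) for this gene. With the unadjusted p-value held to 0.05, 5069 genes (26.7%) were counted, 2492 higher (13.1%) and 2577 lower (13.6%) in ExpOF mice. Because so few genes passed the adjusted threshold, the cohorts were used as a second reading. A gene is called separated here where every ExpOF mouse was higher, or every one lower, than every control of its own cohort, in July and again in September. By this measure 904 genes (4.76% of those tested) were separated, 553 higher (2.91%) and 351 lower (1.85%). The log2 fold changes of the cohorts had the same sign in 13939 genes (73.4%). The overfeeding-by-cohort interaction passed the adjusted threshold in 0 genes by edgeR (0%) and in 0 by DESeq2, and 353 genes (1.86%) passed an unadjusted one of 0.05. DESeq2, with its independent filtering, called 196 of 12729 genes (1.54%), 110 of them higher in ExpOF mice (0.864%). Without Control d14 replicate 1, the edgeR test called 4220 genes and 4545 genes were separated, so the number of genes past a threshold rested on that library.

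**Figure D1:**
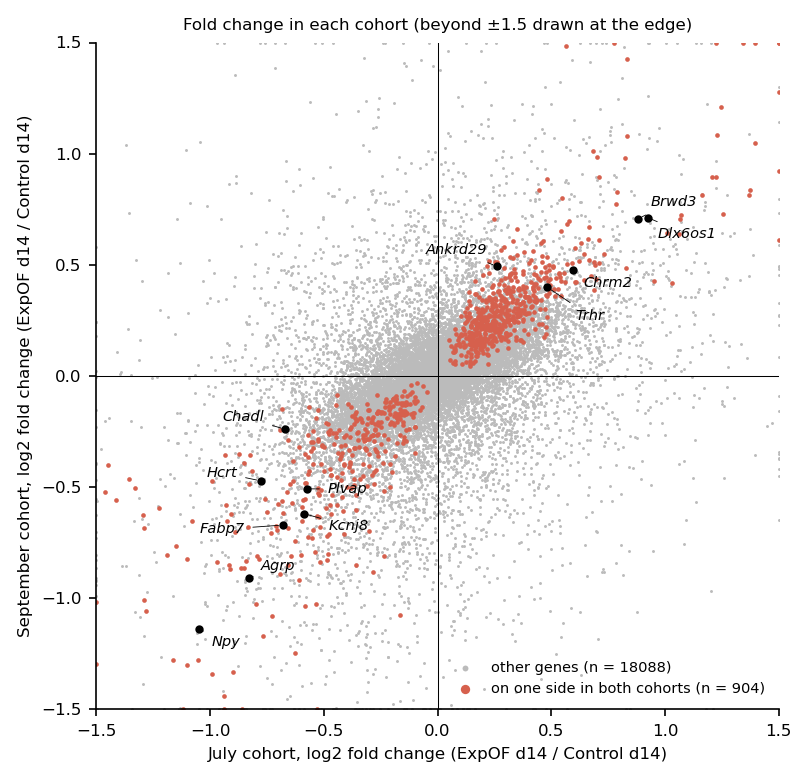
Log2 fold change of ExpOF d14 against Control d14 in the July cohort (x axis) and in the September cohort (y axis) for each tested gene. Of the 18992 genes, 13939 share a sign in the cohorts, and the 904 separated genes, 553 higher and 351 lower, lie where both cohorts have that sign (values beyond 1.5 are drawn at the edge).

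In the gene lists, a member is counted as higher or lower where its unadjusted p-value was under 0.05, to be read against 13.1% higher and 13.6% lower over all genes, and as separated against 2.91% higher and 1.85% lower. A fixed rule named 33 separated genes with an unadjusted p-value under 0.05, 16 lower and 17 higher in ExpOF mice, in addition to those of the lists. In 25 of the 33, all 6 ExpOF mice lay on one side of all 5 controls, beside 475 of all genes tested (2.5%). The adjusted p-values of the 33 by edgeR ran from 0.115 to 0.139, so none passed. Because these same values chose the genes, they are given as a description, and so is the count of 25. The fold changes of the d14+3 mice were not part of the rule. Those mice did share the fit, with its filter, scaling and estimate of the spread, which entered the p-values used to choose.

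Among peptides beyond the arcuate feeding pair, the transcripts of the lateral hypothalamic peptide hypocretin and of somatostatin were lower in every ExpOF mouse than in every control. Hcrt (chr11:100761069-100762928, minus strand, GRCm38) encodes the precursor of the hypocretins, which promote wakefulness and feeding. Its level in ExpOF mice was 62.4 CPM at the lowest, 74.9 at the median and 91.6 at the highest. The July controls had 187, 106 and 121 CPM and the September controls 94.7 and 102 CPM. The groups did not overlap, although the lowest control was close to the highest ExpOF mouse, and the control with 187 CPM stood above the other controls. The log2 fold change was -0.69 ± 0.22 (SE, unadjusted p = 0.00538, adjusted p = 0.135 by edgeR), with -0.78 in July and -0.47 in September. It was -0.49 without Control d14 replicate 2, the control with 187 CPM.

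Sst encodes somatostatin, which inhibits growth hormone release and is made by hypophysiotropic and local inhibitory neurons (chr16:23889573-23890958, minus strand). It ranged from 93.6 to 107 CPM in ExpOF mice, with a median of 102 CPM. The July controls had 179, 116 and 149 CPM and the September controls 116 and 132 CPM. All 6 ExpOF mice were thus below the lowest control, and the ExpOF mice were also closer to each other than the controls were. The log2 fold change was -0.46 ± 0.15 (SE, unadjusted p = 0.00618, adjusted p = 0.135 by edgeR), with -0.56 in July and -0.30 in September. It was -0.35 without Control d14 replicate 2, the control with 179 CPM. The promoter window of Sst is shown because this gene is a textbook target of cAMP signalling and its window holds the palindrome TGACGTCA, the cAMP response element, once (capitals; both strands read). The window covers 250 bases before to 50 bases after the RefSeq start (GRCm38.p6, chr16:23890795-23891094, minus strand, printed 5′ to 3′), and 1.79% of 32817 such windows hold this element.
Sst: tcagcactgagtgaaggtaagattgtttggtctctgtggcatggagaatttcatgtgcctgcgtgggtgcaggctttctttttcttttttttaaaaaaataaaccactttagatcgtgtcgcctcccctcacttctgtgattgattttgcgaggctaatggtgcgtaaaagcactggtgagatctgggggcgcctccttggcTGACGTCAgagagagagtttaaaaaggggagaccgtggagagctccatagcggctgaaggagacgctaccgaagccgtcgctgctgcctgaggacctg

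Over all genes 46.6% had a positive log2 fold change. Of the 30 hypothalamic neuropeptide genes tested, 26 had a negative one, 12 were lower at an unadjusted p-value under 0.05 (13.6% over all genes) and none was higher (13.1%). Their median was -0.21 (-0.30 in July, -0.09 in September), beside -0.02 over all genes tested. The 4 separated members were Hcrt, Sst, Qrfp and Grp, all lower (1.85% over all genes). Qrfp, an appetite-stimulating RF-amide peptide, was at 1.53 to 2.25 CPM in ExpOF mice, at 2.53, 3.37 and 2.90 CPM in the July controls and at 1.96 and 2.23 CPM in the September controls (-0.52 ± 0.19, unadjusted p = 0.0104, adjusted p = 0.138 by edgeR). Its pooled ranges overlapped, and its separation held within the cohorts only. Grp, gastrin-releasing peptide, was at 2.50 to 2.93 CPM in ExpOF mice and 3.02 to 4.25 CPM in controls (-0.35 ± 0.15, adjusted p = 0.154 by edgeR), and it overlaps a gene on the opposite strand. Members that were lower without being separated included Nmb, neuromedin B (-0.54), Ghrh, the releasing hormone of growth hormone (-0.45), Ucn3, urocortin 3 (-0.42), and Pnoc, the precursor of nociceptin (-0.26).

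The neurohypophysial hormones did not separate. Avp (vasopressin) was at 49.1 to 95.6 CPM in ExpOF mice with a median of 62.0 CPM. The July controls had 199, 95.5 and 168 CPM, whereas the September controls had 68.8 and 70.6 CPM. The September controls and the July control with 95.5 CPM were inside the ExpOF range. The log2 fold change was -0.83 ± 0.30 (SE, adjusted p = 0.139 by edgeR), with -0.96 in July and -0.31 in September. Oxt (oxytocin) followed the same layout, with -0.70 ± 0.29 (SE, adjusted p = 0.151 by edgeR) and -0.85 in July against -0.18 in September. For each hormone 2 July controls stood above the ExpOF range, and the interaction with cohort was not past the threshold for any gene. Among other feeding peptides, Cck, cholecystokinin, had -0.75 ± 0.42 (SE), with -1.06 in July and -0.40 in September. Smaller log2 fold changes were 0.20 ± 0.21 for Pomc, the precursor of α-MSH, -0.18 ± 0.15 for Cartpt, 0.26 ± 0.19 for Crh and -0.02 ± 0.17 for Pmch, the precursor of melanin-concentrating hormone. None had an unadjusted p-value under 0.05 by edgeR. Without Control d14 replicate 1 the neuropeptide median was -0.26, and with offsets for gene length it was -0.05.

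**Figure D2:**
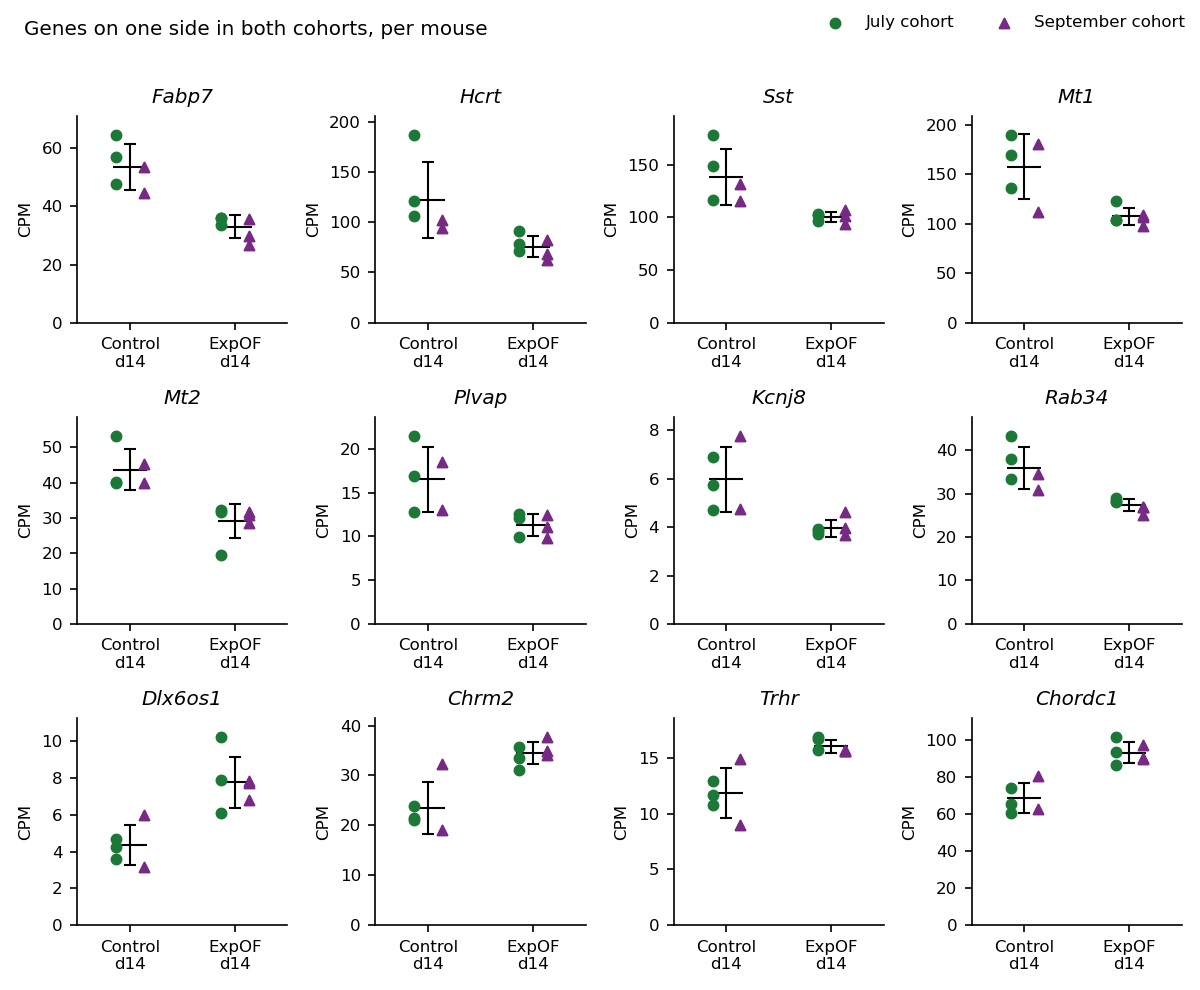
Level in CPM (y axes from 0) of 12 separated genes in Control d14 and ExpOF d14 mice (x axis), each symbol 1 mouse, with circles for July, triangles for September, and lines for the group mean and SD. Sst sits between 93.6 and 107 CPM in ExpOF mice and between 116 and 179 CPM in controls, and Fabp7 between 26.8 and 36.1 CPM against 44.6 to 64.6 CPM.

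Receptors of feeding hormones and peptides differed in both directions. Of 31 tested, 6 were higher and 4 lower at an unadjusted p-value under 0.05, against 13.1% and 13.6% of all genes, and their median was 0.11 (0.03 without Control d14 replicate 6 and 0.19 without replicate 1). The receptor of thyrotropin-releasing hormone, Trhr, was the 1 separated member. It was at 15.6 to 17.0 CPM in ExpOF mice with a median of 15.8 CPM, at 10.8, 12.9 and 11.7 CPM in the July controls and at 14.9 and 8.97 CPM in the September controls, without overlap (0.44 ± 0.17, SE, unadjusted p = 0.0143, adjusted p = 0.14 by edgeR). Hcrtr2, the type 2 hypocretin receptor, was higher by 0.47 ± 0.15 on the log2 scale (unadjusted p = 0.00416, adjusted p = 0.135 by edgeR), but 1 September control had 8.86 CPM, inside the ExpOF range of 8.05 to 9.92 CPM. Prlr, the prolactin receptor, had 0.44 ± 0.19 and Lepr, the leptin receptor, 0.21 ± 0.21 (0.07 without Control d14 replicate 2). In leptin and insulin signalling, 7 of 28 genes were higher and 1 lower, with a median of 0.11. Jak2, the kinase that acts below the leptin receptor, was separated at 0.17 ± 0.07 (SE, adjusted p = 0.144 by edgeR). The other separated member of that list, lower, was Igfbp4, described with the lower genes.

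Metallothioneins, the small cysteine-rich proteins that bind zinc and copper and that respond to metals and glucocorticoids, were lower in the ExpOF mice of both cohorts. Mt1 (chr8:94179082-94180327, plus strand) was at 97.7 CPM at the lowest, 106 at the median and 123 at the highest in ExpOF mice. It was at 190, 137 and 170 CPM in the July controls and at 112 and 181 CPM in the September controls. The September control with 112 CPM (replicate 1) was above the ExpOF mice of its own cohort but inside the pooled ExpOF range. The log2 fold change was -0.55 ± 0.14 (SE, unadjusted p = 0.0008, adjusted p = 0.135 by edgeR), with -0.59 in July and -0.48 in September. Mt2 (chr8:94172664-94173568, plus strand) was at 19.5, 31.2 and 32.4 CPM (lowest, median and highest) in ExpOF mice, at 53.3, 39.8 and 40.1 CPM in the July controls and at 39.9 and 45.1 CPM in the September controls. Here no control came near the ExpOF range, and the log2 fold change was -0.57 ± 0.14 (SE, unadjusted p = 0.000381, adjusted p = 0.135 by edgeR). Mt2 overlaps a predicted gene on the opposite strand, and which strand the counting used is not given in the sources used here.

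The promoter windows of both genes are shown because they hold the metal response element, the site of the metal-sensing factor that switches metallothioneins on. Capitals mark its core, searched as TGCACNC and TGCGCNC on both strands. The windows run from 250 bases before to 50 bases after the RefSeq start (GRCm38.p6), at chr8:94178839-94179138 for Mt1 and chr8:94172368-94172667 for Mt2, both on the plus strand and printed 5′ to 3′. Mt1 holds 3 matches and Mt2 holds 4. Of 32817 windows, 25.7% hold at least 1 match, 1.97% at least 3 and 0.518% at least 4. A match is a run of letters and not a measured binding site.
Mt1: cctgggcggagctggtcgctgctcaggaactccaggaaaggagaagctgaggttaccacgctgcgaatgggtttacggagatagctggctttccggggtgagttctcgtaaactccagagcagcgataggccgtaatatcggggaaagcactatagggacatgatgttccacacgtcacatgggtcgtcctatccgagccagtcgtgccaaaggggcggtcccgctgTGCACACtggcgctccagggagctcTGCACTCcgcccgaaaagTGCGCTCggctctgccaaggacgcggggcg
Mt2: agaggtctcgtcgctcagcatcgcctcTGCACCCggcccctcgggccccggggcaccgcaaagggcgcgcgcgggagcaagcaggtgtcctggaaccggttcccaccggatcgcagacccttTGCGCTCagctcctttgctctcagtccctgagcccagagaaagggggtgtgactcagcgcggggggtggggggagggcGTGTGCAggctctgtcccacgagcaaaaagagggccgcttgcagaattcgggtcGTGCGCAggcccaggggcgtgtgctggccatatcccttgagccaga

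Mt1 and Mt2 were the 2 separated members of the 14 glucocorticoid target genes, both lower (1.85% over all genes). They were also the only 2 lower at an unadjusted p-value under 0.05, a share of 14.3%, close to the 13.6% over all genes. None was higher (13.1% over all genes). The list as a whole had a median of -0.03, beside -0.02 over all genes.

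Fabp7, the brain fatty acid binding protein of astrocytes and radial glia-like cells, had the smallest p-value after Npy. In ExpOF mice it was at 26.8 CPM at the lowest, 34.7 at the median and 36.1 at the highest. Controls of July had 57.1, 47.7 and 64.6 CPM and the September controls 44.6 and 53.3 CPM. The highest ExpOF mouse was well below the lowest control (chr10:57784881-57788450, plus strand; -0.70 ± 0.13, SE, unadjusted p = 1.44e-05, adjusted p = 0.115 by edgeR), and the cohorts gave nearly the same value, -0.68 in July and -0.67 in September. Of 14 astrocyte markers tested, which do not include Fabp7, 3 were higher and 4 lower at an unadjusted p-value under 0.05, and the median was -0.08. Slc4a4, a sodium bicarbonate cotransporter of astrocytes, had 0.29. Gjb6, the gap junction protein connexin 30, was the separated astrocyte member, at -0.15.

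Rab34, a small GTPase of Golgi and primary cilia, was at 25.0 to 29.0 CPM in ExpOF mice with a median of 27.5 CPM. Levels were 43.3, 33.4 and 37.8 CPM in the July controls and 30.8 and 34.5 CPM in the September controls (-0.40 ± 0.08, SE, unadjusted p = 2.41e-05, adjusted p = 0.115 by edgeR). Igfbp4, which binds insulin-like growth factors outside the cell, was at 7.96 to 11.7 CPM in ExpOF mice and at 16.3, 11.4, 16.7, 14.2 and 18.4 CPM in the controls, with a log2 fold change of -0.58 ± 0.19 (SE, adjusted p = 0.135 by edgeR). The July control at 11.4 CPM lay inside the pooled ExpOF range. Marveld1 differed little among mice, with 13.1 to 13.9 CPM in ExpOF mice and 15.3 to 17.9 CPM in controls, a small difference of -0.28 ± 0.06 (SE, unadjusted p = 7.23e-05, adjusted p = 0.135 by edgeR). The remaining lower genes included Rdh5, a retinol dehydrogenase (-0.58 ± 0.17, with 16.5 CPM in 1 September control against 7.38 to 9.52 CPM in the other controls, and -0.33 without that mouse), Gpd1, the cytosolic glycerol-3-phosphate dehydrogenase (-0.53 ± 0.17), and Parp3, an ADP-ribosyltransferase of DNA repair (-0.42 ± 0.09). The log2 fold changes were -0.61 for Lrp8os2, -0.55 for Odf3b, -0.47 for Chadl, -0.47 for Hscb and -0.37 for Zdhhc4.

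Genes of vessel walls were among the lower ones. Kcnj8, the potassium channel subunit that marks pericytes, was at 3.67 to 4.64 CPM in ExpOF mice with a median of 3.88 CPM. It was at 6.90, 4.72 and 5.75 CPM in the July controls and at 4.75 and 7.79 CPM in the September controls. No control lay within the ExpOF range, but 2 were close to its upper end (-0.59 ± 0.16, SE, unadjusted p = 0.00144, adjusted p = 0.135 by edgeR). Acta2, the actin of smooth muscle, was at 8.01 to 10.8 CPM in ExpOF mice and 10.5 to 12.7 CPM in controls (-0.36 ± 0.12, adjusted p = 0.135 by edgeR), and Pdgfrb, the receptor that recruits pericytes, had -0.17 ± 0.08. Of the 11 mural cell markers tested, 5 were lower at an unadjusted p-value under 0.05 (13.6% over all genes), none was higher and 3 were separated on the lower side (1.85% over all genes), namely Kcnj8, Acta2 and Pdgfrb. Their summed level was 233.3 to 262.4 CPM in ExpOF mice and 263.5 to 285.2 CPM in controls, so that all 6 ExpOF mice were below all 5 controls. The median of the list was -0.17, with -0.15 in July and -0.29 in September, and it was -0.31 without ExpOF d14 replicate 2.

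Plvap forms the diaphragms of fenestrated endothelium, the leaky vessels of the median eminence (chr8:71497765-71511752, minus strand). It was at 9.78 to 12.5 CPM in ExpOF mice with a median of 11.6 CPM. The July controls had 21.5, 12.7 and 16.9 CPM and the September controls 13.0 and 18.4 CPM. The lowest control was just above the highest ExpOF mouse (-0.55 ± 0.15, SE, unadjusted p = 0.00109, adjusted p = 0.135 by edgeR), and the gene overlaps Gtpbp3 on the opposite strand. Among the 16 endothelial markers, 4 were lower and none was higher at an unadjusted p-value under 0.05, and none was separated. Cldn5, a tight junction protein, had -0.55 ± 0.16 and Egfl7 -0.38 ± 0.11, yet the median of the list was -0.10 and its summed level overlapped, with 499 to 561.5 CPM in ExpOF mice and 521.7 to 662.1 CPM in controls.

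Markers of leptomeningeal fibroblasts, the cells of the pia and arachnoid, were lower as well, with 8 of 13 at an unadjusted p-value under 0.05, none higher and none separated. Their median was -0.44, with -0.40 in July and -0.60 in September. It was -0.67 without ExpOF d14 replicate 3 and -0.30 without Control d14 replicate 1, the mouse with the highest mean over the list. Their summed level of 278.5 to 417.4 CPM in ExpOF mice overlapped the 356.8 to 713.7 CPM of controls. Igfbp2, which is high in meninges and choroid plexus, reached 34.1 CPM in Control d14 replicate 5 against 4.84 to 10.6 CPM in the other controls and 3.62 to 5.37 CPM in ExpOF mice (-1.57 ± 0.42, and -0.84 without that mouse). Choroid plexus markers had a median of -1.60, and this value rested on the same mouse: their summed level was 3129 CPM in Control d14 replicate 5, whereas the lowest control had 45.04 CPM and ExpOF mice 45.27 to 49.17 CPM, and without that library the median was -0.23. Slc4a5, a bicarbonate transporter of the choroid plexus and the 1 separated marker, was at 14.4 CPM in that mouse, at 0.194 to 0.345 CPM in the other controls and at 0.0959 to 0.167 CPM in ExpOF mice. Ependymal markers were lower at an unadjusted p-value under 0.05 in 6 of 10, higher in none and separated in none, with a median of -0.32 (-0.07 with the profile score as a covariate and -0.16 with length offsets) and a summed level of 85.98 to 106.7 CPM in ExpOF mice and 96.39 to 127.9 CPM in controls. How much of the tissue border was dissected with each hypothalamus was not tested for any of these lists.

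**Figure D3:**
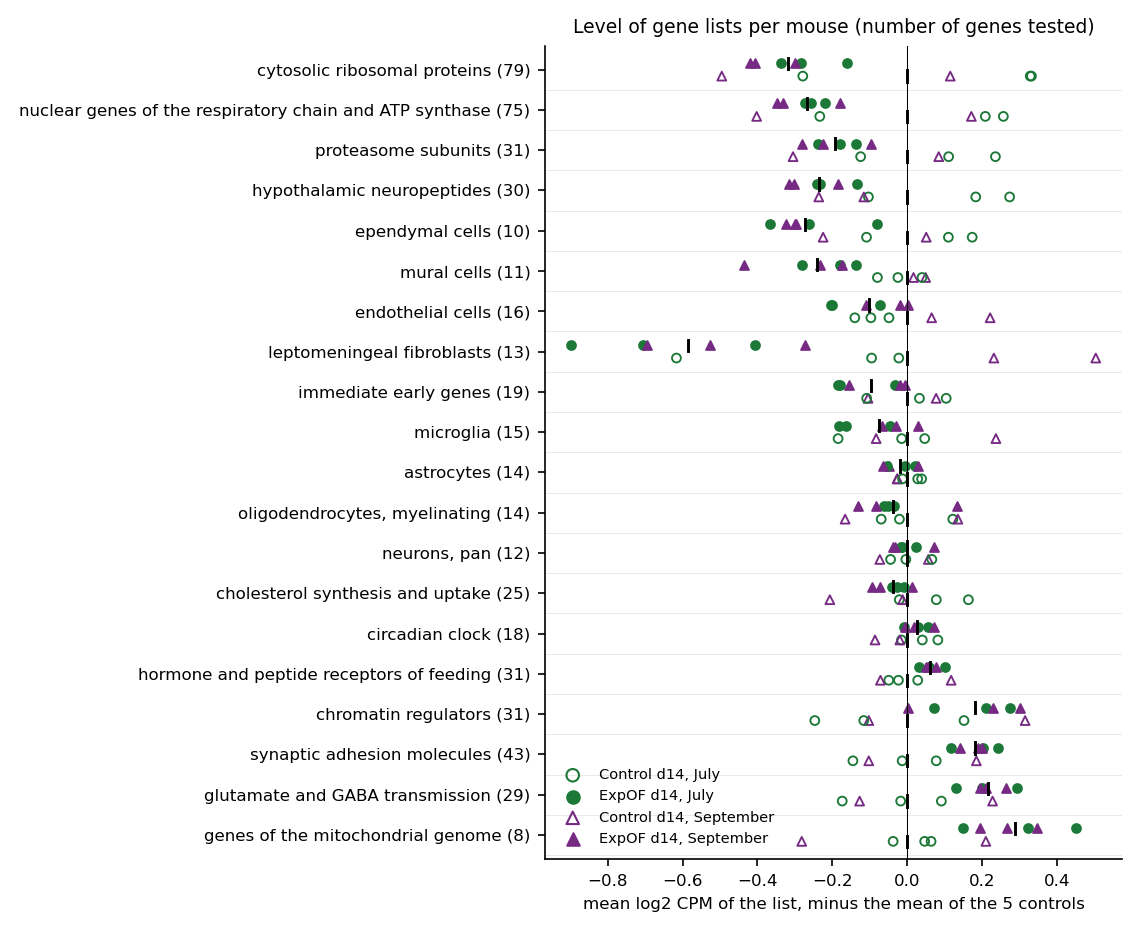
Mean log2 CPM of the genes of each list (y axis, number of genes tested in brackets) in each mouse, minus the mean of the 5 controls (x axis), with open symbols for controls, filled symbols for ExpOF mice, circles for July, triangles for September and short bars for group means. For mural cells all 6 ExpOF mice lie left of all 5 controls (mean log2 CPM of 2.90 to 3.20 against 3.26 to 3.39). For the ribosomal, respiratory and proteasome lists, the September Control d14 replicate 1 lies left of the ExpOF mice and the July Control d14 replicate 3 lies among them.

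Markers of the remaining cell types lay close to the median of all genes. The medians were -0.09 for neurons in general (3 of 12 higher and 1 lower at an unadjusted p-value under 0.05, summed level 7138 to 7578 CPM in ExpOF mice and 7004 to 7519 CPM in controls), -0.01 for tanycytes (1 of 12 lower), -0.01 for myelinating oligodendrocytes (1 of 14 higher and 3 lower), -0.04 for their precursors and newly formed cells (1 of 10 lower) and -0.03 for microglia (2 of 15 higher and 3 lower). The microglial receptor Trem2 had -0.46. Of the neighbouring brain regions, the thalamus list had a median of -0.35 (1 of 7 lower; -0.16 without Control d14 replicate 6), the striatum list 0.01 (1 of 7 higher and 1 lower) and the list of cortex and hippocampus 0.04 (2 of 6 higher and 2 lower). Hypothalamic identity genes had -0.03 (2 of 16 higher, the transcription factors Sim1 with 0.55 and Lhx6 with 0.51). None of the 5 red blood cell genes had an unadjusted p-value under 0.05, and 2 pituitary markers were tested, too few for a median.

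On the higher side, the 17 genes included a noncoding RNA of a neuronal locus, a neurotransmitter receptor and nuclear proteins. Dlx6os1, a long noncoding RNA of the Dlx5 and Dlx6 locus, which specifies inhibitory neurons of the forebrain, had the largest log2 fold change among them (chr6:6820189-6871592, minus strand). It was at 6.11 CPM at the lowest, 7.78 at the median and 10.3 at the highest in ExpOF mice, at 4.69, 4.26 and 3.59 CPM in the July controls and at 6.01 and 3.18 CPM in the September controls. The groups did not overlap, with the September control at 6.01 CPM (replicate 1) next to the lowest ExpOF mouse (0.83 ± 0.20, SE, unadjusted p = 0.000301, adjusted p = 0.135 by edgeR). It overlaps Dlx6 on the opposite strand.

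Chrm2, the M2 muscarinic acetylcholine receptor, was at 31.2 to 37.8 CPM in ExpOF mice with a median of 34.6 CPM. The July controls had 21.5, 23.8 and 21.0 CPM and the September controls 32.3 and 19.1 CPM. Control d14 replicate 1, at 32.3 CPM, was again inside the pooled ExpOF range, though below the ExpOF mice of its own cohort (0.56 ± 0.13, SE, unadjusted p = 0.000232, adjusted p = 0.135 by edgeR). Uhrf2, a ubiquitin ligase that reads modified DNA and histones, was tight in ExpOF mice at 64.8 to 67.7 CPM, and controls had 46.3, 52.6, 54.1, 56.8 and 45.5 CPM (0.37 ± 0.08, SE, unadjusted p = 0.00017, adjusted p = 0.135 by edgeR). Slitrk4, a synaptic adhesion protein, was at 30.2 to 35.8 CPM in ExpOF mice and 19.1 to 31.2 CPM in controls (0.53 ± 0.18). Brwd3, a bromodomain protein encoded on the X chromosome, was at 13.0 to 17.5 CPM in ExpOF mice and 4.94 to 12.9 CPM in controls (0.80 ± 0.24), with replicate 1 once more the highest control. Thap2 (0.39 ± 0.09), Ankrd29 (0.37 ± 0.08), Prrg1 (0.79 ± 0.23) and Zfp354b (0.43) were also separated. The log2 fold changes of Trove2, Fam199x, Zbtb26, Fsd1l, AC127249.1, Dok6 and Osbpl8 ran from 0.55 to 0.60, and Gpr89, a Golgi ion channel, had the smallest of the named values at 0.27 ± 0.06.

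Several lists of synaptic genes had positive medians. Of 43 genes of synaptic adhesion molecules, 20 were higher and 1 lower at an unadjusted p-value under 0.05 (median 0.18; 0.23 in July and 0.12 in September), and of 29 genes of glutamate and GABA transmission 15 were higher and none lower (median 0.22; 0.23 and 0.20). Gabrb2, a subunit of the GABA-A receptor, was at 72.3 to 107 CPM in ExpOF mice with a median of 102 CPM, at 29.6, 68.8 and 49.5 CPM in the July controls and at 103 and 54.6 CPM in the September controls (0.64 ± 0.25, SE, adjusted p = 0.144 by edgeR). The control at 103 CPM was replicate 1, above the ExpOF median. Grm5, a metabotropic glutamate receptor, had 0.47 ± 0.17. Separated members were few: Gria4, an AMPA receptor subunit (0.24 ± 0.08), and in adhesion Slitrk4 and Il1rapl1 (0.49 ± 0.19). Over all genes 13.1% were higher and 13.6% lower at that p-value. With length offsets the medians were 0.07 for adhesion and 0.10 for transmission. Of 26 postsynaptic genes 9 were higher and none lower, with a median of 0.09 (-0.03 with length offsets), and the scaffolds Dlg1 (0.16) and Gphn (0.13) were separated on the higher side and the kinase subunit Camk2b (-0.06) on the lower side. Of 26 genes of vesicle release 7 were higher and 2 lower, with a median of 0.03, and the priming and active zone genes Unc13c (0.37), Rims1 (0.20) and Rims2 (0.26) were separated. Chromatin regulators had 10 of 31 higher, none lower, none separated and a median of 0.16 (0.10 without Control d14 replicate 2 and 0.25 without replicate 1), with 0.39 for Kmt2c, a histone methyltransferase (0.60 without Control d14 replicate 1). Rims1 had 0.14 without Control d14 replicate 2.

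Genes of the ribosome, the respiratory chain and the proteasome had negative values. Of 79 genes of cytosolic ribosomal proteins all 79 had a negative log2 fold change, and 69 were lower at an unadjusted p-value under 0.05, but none was separated (median -0.35; -0.41 in July and -0.21 in September). All 75 nuclear-encoded subunits of respiratory complexes and ATP synthase were negative as well, 55 lower and none separated (median -0.31), and of 31 proteasome subunits 22 were lower, none higher and none separated (median -0.24). Rps28, a protein of the small ribosomal subunit, was at 22.3 to 26.4 CPM in ExpOF mice, at 41.0, 29.5 and 45.7 CPM in the July controls and at 46.8 CPM in Control d14 replicate 5, but at 21.3 CPM in Control d14 replicate 1, below every ExpOF mouse (-0.63 ± 0.22). Rpl36 had -0.54, Ndufa2 -0.58, Cox6a1 -0.54 and Psmb4 -0.47.

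The summed level of the ribosomal protein genes was 8823 to 10200 CPM in ExpOF mice and spread from 8378 to 14740 CPM in controls. By mean log2 CPM over these genes, the July mouse Control d14 replicate 3 lay inside the ExpOF range, at 6.54. Control d14 replicate 1 had the lowest mean log2 CPM over these genes, 6.32, against 6.40 to 6.66 in ExpOF mice and 6.54 to 7.15 in the other controls, and likewise over the respiratory genes, 6.30 against 6.35 to 6.52 in ExpOF mice. Without it, the medians were -0.45 for ribosomal protein genes, -0.40 for the respiratory chain, 0.26 for synaptic adhesion, 0.30 for glutamate and GABA transmission and 0.25 for chromatin regulators. With the score for the left-out library's profile as a covariate, the medians were -0.01 for ribosomal protein genes, 0.03 for the respiratory chain, 0.04 for synaptic adhesion, 0.05 for glutamate and GABA transmission and -0.02 for chromatin regulators, each smaller in size than without the covariate. That score differed between the groups, so the covariate and overfeeding cannot be fully told apart. The 8 tested genes of the mitochondrial genome, which encode subunits of the same respiratory complexes, were all higher, 6 of them at an unadjusted p-value under 0.05 (median 0.21; 0.19 in July and 0.26 in September). The separated ones were mt-Nd2, mt-Nd4 and mt-Co1. For mt-Nd2 the level was 2818 to 3603 CPM in ExpOF mice, 2108, 2294 and 2452 CPM in the July controls and 2910 and 1865 CPM in the September controls (0.46 ± 0.14, SE, adjusted p = 0.135 by edgeR), and mt-Nd4 had 0.22 ± 0.08 and mt-Co1 0.20 ± 0.08. Reads of these genes can be shared with nuclear copies of mitochondrial DNA, so their values are uncertain.

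Exon length went with direction across the whole transcriptome. The tested genes were ordered by length and divided into 10 classes of equal size. In the shortest class (54 to 1158 bases) the median log2 fold change was -0.22 in July and -0.15 in September, and 20.6% of genes were lower and 4.05% higher at an unadjusted p-value under 0.05. In the longest class (9197 to 123179 bases) it was 0.23 in July and 0.10 in September, with 1.26% lower and 42.1% higher. The July medians of classes 3 to 10 were each larger than the one before. On d14+3 the medians ran from -0.07 in class 2 to 0.08 in the longest class. The separated genes had a median length of 5801 bases when higher and 2928 bases when lower, beside 3787 bases over all genes, and the 33 named genes had 8590 bases (2888 to 13804) and 2597 bases (588 to 5257). Over all genes, the share with an unadjusted p-value under 0.05 was 19.9% with offsets that remove each library's trend with length, 5.42% with the profile score as a covariate and 32.1% with the RNA integrity number as a covariate, against 26.7% without any of them. Of the separated higher genes 69.6% had such a p-value with the length offsets, 19.9% with the profile score and 94.4% with RNA integrity, and of the separated lower genes 67.2%, 36.8% and 84.3%. All 33 named genes had it with the length offsets and with RNA integrity, and 17 with the profile score. Separated and named genes were chosen in these same libraries, so their shares are a description. The part of RNA quality and transcript length in these differences was not tested beyond these fits.

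**Figure D4:**
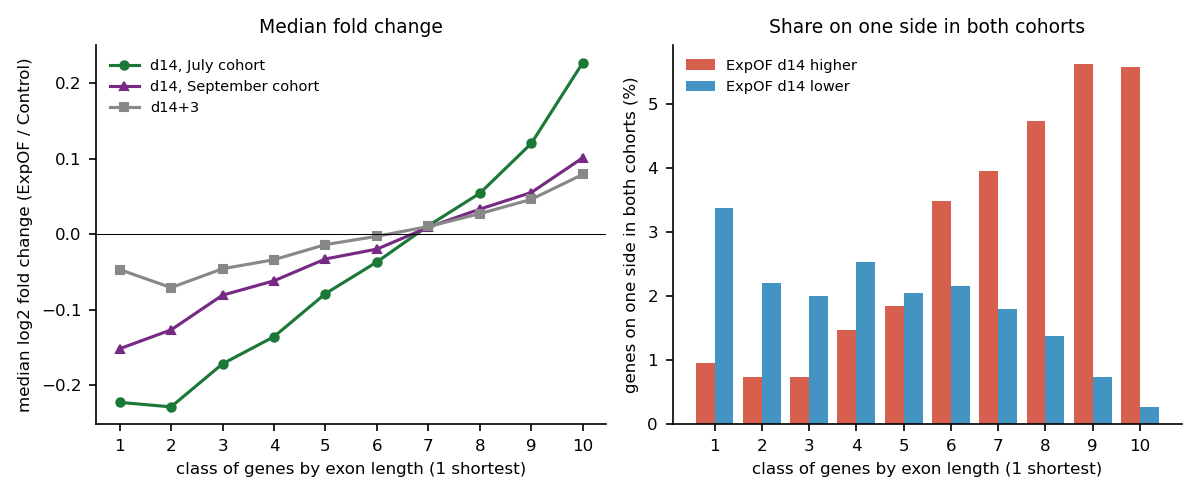
On the left, median log2 fold change (y axis) of the tested genes in 10 classes by exon length from shortest to longest (x axis), for d14 in the July and September cohorts and for d14+3; on the right, percent of the genes in each class that were separated, higher or lower (bars). The July line climbs from -0.22 in the shortest class to 0.23 in the longest, and separated higher genes make up 0.947% of the shortest and 5.58% of the longest class.

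Lists of the clock, of metabolism and of stress responses had medians between -0.10 and -0.03. Of 18 circadian clock genes, 4 were higher and none lower at an unadjusted p-value under 0.05, while 10 of the 18 had a negative log2 fold change and the median was -0.05. The nuclear receptor Nr1d2, a clock repressor also called REV-ERBβ, was separated: ExpOF mice had 120 to 152 CPM, the July controls 105, 109 and 110 CPM and the September controls 124 and 90.8 CPM (0.34 ± 0.10, SE, unadjusted p = 0.00254, adjusted p = 0.135 by edgeR). Per2, a core clock repressor, was at 31.3 to 37.2 CPM in ExpOF mice, and 1 July control at 32.3 CPM lay in that range while the others had 23.2 to 29.5 CPM (0.37 ± 0.09, unadjusted p = 0.000323, adjusted p = 0.135 by edgeR). Clock had 0.38 ± 0.14. The hour of tissue collection of each mouse was not analysed here.

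In lipid synthesis the members pointed in different directions. Of 15 genes of fatty acid synthesis and desaturation, 3 were higher and 4 lower, with a median of -0.09. Srebf1, the transcription factor that drives fatty acid synthesis, was at 115 to 124 CPM in ExpOF mice and at 156, 144, 138, 131 and 140 CPM in controls, without overlap (-0.24 ± 0.11, SE, unadjusted p = 0.0321). Acly, which makes cytosolic acetyl-CoA, was separated on the higher side (286 to 304 CPM against 240 to 295 CPM; 0.16 ± 0.06, adjusted p = 0.135 by edgeR), and Elovl6, a fatty acid elongase, had 0.22 ± 0.06, while Thrsp, a lipogenic gene responsive to thyroid hormone, had -0.58 ± 0.27 (-0.35 without Control d14 replicate 2). Of 25 genes of cholesterol synthesis and uptake, 2 were higher and 4 lower, with a median of -0.03. The higher ones were both separated: Sc5d, a late sterol desaturase (89.4 to 97.7 CPM in ExpOF mice and 69.7 to 86.0 CPM in controls; 0.24 ± 0.08), and Stard4, a cholesterol transport protein (0.20 ± 0.08). Fdps, an earlier enzyme of the pathway, had -0.40 ± 0.14.

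Among cytosolic heat shock proteins 1 of 15 was higher and 3 were lower, with a median of -0.10. Chordc1, a partner of the chaperone HSP90, was the higher one, at 86.9 to 102 CPM in ExpOF mice against 65.6, 60.8 and 74.3 CPM in the July controls and 80.5 and 62.7 CPM in the September controls, without overlap (0.44 ± 0.15, SE, unadjusted p = 0.00714, adjusted p = 0.135 by edgeR). Hspa1a, the inducible HSP70, had -0.41 ± 0.18 (-0.27 without Control d14 replicate 2). The endoplasmic reticulum stress list had 1 of 20 higher and 1 lower (median -0.10), and none of the 19 tested genes of inflammation and interferon response had an unadjusted p-value under 0.05 in either direction (median -0.07), while the transcripts of Tnf, Il6, Ccl2 and Ccl3 were too low to be tested. Of 19 immediate early genes 4 were lower and none higher (median -0.09), with -0.72 ± 0.24 for Jund and -0.67 for Ier2, and none was separated.

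After 3 days without the liquid diet, mice of d14+3 gave 0 genes (0%) past the adjusted threshold by edgeR, against 1350 (7.11%) past an unadjusted 0.05. Of the 33 named genes, 31 had the same sign there as on d14 (14 of 16 lower and 17 of 17 higher), beside 71.3% of all genes tested, and 6 had an unadjusted p-value under 0.05. Fabp7 had -0.45 ± 0.12 on the log2 scale (unadjusted p = 0.00133), Mt1 -0.32 ± 0.14 (unadjusted p = 0.0296), Plvap -0.31 ± 0.14 and Gpr89 0.22. Mt2 and Rdh5 were the exceptions in sign, at 0.23 ± 0.13 and 0.17 ± 0.17. The overfeeding-by-day interaction had an unadjusted p-value under 0.05 in 11 of the 33 genes (0.000322 for Mt2), but the lowest adjusted value among them was 0.903 by edgeR, so a difference between the days was not shown. Hcrt, which is among the 33, had -0.43 ± 0.22 at d14+3. Outside the 33, Avp had -0.99 ± 0.29, Oxt -0.73 ± 0.28 and Sst -0.29 ± 0.15 at d14+3. Of the separated genes, 493 of 553 higher ones (89.2%) and 261 of 351 lower ones (74.4%) kept their sign, beside 71.3% of all genes. The labelled RNA integrity number was 7.2 to 9.9 in Control d14+3 mice and 8.8 to 10 in ExpOF d14+3 mice. Its part in the agreement of signs was not tested. The median of the ribosomal protein genes was -0.44 and that of the neuropeptides -0.08 on d14+3.

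**Figure D5:**
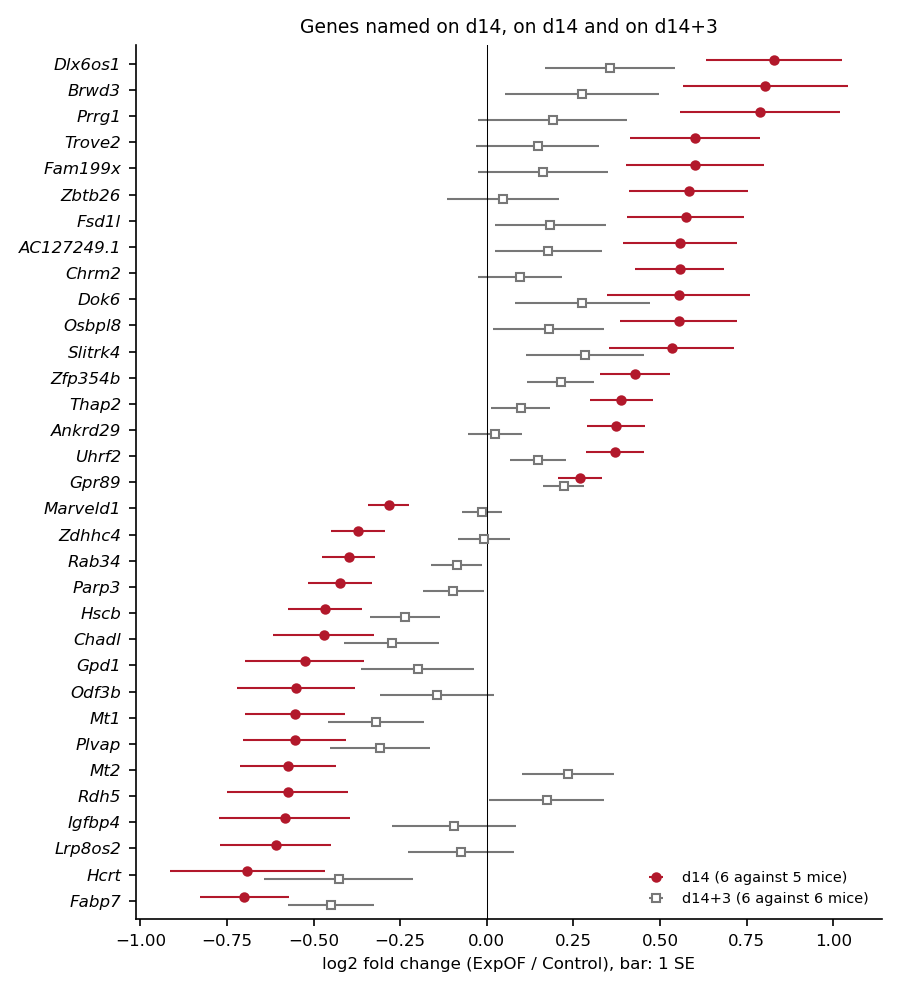
Log2 fold change with its standard error (x axis) of the 33 named genes (y axis) on d14 and on d14+3. On d14+3 the 17 higher genes all stay right of zero, and of the 16 lower genes Mt2 (0.23) and Rdh5 (0.17) lie right of it.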

How the data were processed

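Hypothalamic RNA of single mice was sequenced from poly-A selected, stranded libraries. Per the labels, the authors used STAR on mm10 and featureCounts 1.6.4, and the deposited values are raw counts without normalization, beside the length of each gene in bases. No column of per-sample values was left unused (0). The analysis used edgeR 4.0.16 (R 4.3.3) on these counts: TMM scaling, filterByExpr, and a robust quasi-likelihood fit of the 4 groups over 23 libraries, with Benjamini-Hochberg adjustment over the 18992 genes tested. CPM values are these counts scaled with TMM factors, without a prior count, and list means per library used a prior count of 2. Values are relative to TMM, and counting error limits the genes of a few CPM most. The p-values measure the spread between these mice. Gene symbols came from GENCODE vM21 (55230 of the genes matched).

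The members and lists were chosen with earlier results of these data known. Genes were named by this rule: those past the threshold; among separated genes with an unadjusted p-value under 0.05, a mean of at least 5 CPM and a symbol that is not a provisional one, the 12 largest changes and the 6 smallest p-values in each direction; and up to 2 members of each list in each direction. Other separated members of lists were chosen for naming once their values had been seen. The result of 1 gene is not reported here. The 37 lists, 17 of them of cell type markers, were written by hand. Fewer than 3 members were tested in 1 list.

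The alternatives were DESeq2 1.42.0, DESeq2's size factors, filters of at least 1 count over all libraries or of at least 10 counts per library, a fit of the d14 groups only, Control d14 replicate 4 included, each cohort alone, covariates for cohort and extraction round, for RNA integrity and for the profile score, a block for the replicate number, length offsets (spline with 5 degrees of freedom) and each library left out in turn. The profile score projects each library's log2 CPM deviation onto the difference between Control d14 replicate 4 and the mean of the other controls, so that a library with that whole difference scores 1 more than one without it. The tests were checked on simulated counts in which genes varied independently. That check does not cover variation shared by many genes of a library. Promoter windows came from RefSeq, and figures were drawn with matplotlib 3.10.9.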

Additional observations from a re-analysis of the deposited data

Results flagged for a closer look

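Single mice far from the rest of their group were looked for with Dixon's ratio in the 5 controls and the 6 ExpOF mice, over the genes and lists named here. Of 276 groups of values examined, 19 held such a mouse, and chance alone gives about 1 in 20 groups.

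Control d14 replicate 5 had 4 of these values. Its mean log2 CPM over choroid plexus markers was 4.92 against 1.36 in the nearest control, Slc4a5 was at 14.42 CPM against 0.345 CPM, Igfbp2 at 34.09 CPM against 10.6 CPM and the retinol dehydrogenase Rdh5 at 16.49 CPM against 9.52 CPM. The choroid plexus mean, Slc4a5, Igfbp2 and Rdh5 were thus high in the same mouse, whereas the mean of the leptomeningeal list was highest in Control d14 replicate 1. In Control d14 replicate 2, Hcrt was at 187.1 CPM against 120.7 CPM in the next control.

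ExpOF d14 replicate 5, the library with the lowest total count (8928182), had 8 of the values. The part of its depth in them was not tested. Mt2 was at 19.5 CPM against 28.5 CPM in the nearest ExpOF mouse and Zdhhc4 at 19.95 CPM against 23.5 CPM, both low. High in this mouse were Trove2 (93.31 CPM), Dok6 (73.93 CPM), Fam199x (28.74 CPM), Zbtb26 (15.44 CPM), the glutamate receptor Grm5 (159.1 CPM) and the mean of the striatum markers (4.51 on the log2 CPM scale against 4.06). Without this library, the largest unadjusted p-value of the 33 named genes was 0.0314.

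The remaining values were Kcnj8 in ExpOF d14 replicate 3 (4.64 CPM against 3.98 CPM), Cldn5 in ExpOF d14 replicate 4 (35.97 CPM against 30.9 CPM), the mean of myelinating oligodendrocyte markers in the same mouse (7.79 against 7.62 on the log2 CPM scale), Rims1 (94.92 CPM against 105.7 CPM) and the mean of ependymal markers (3.06 against 2.88) in ExpOF d14 replicate 1, and Zfp354b in ExpOF d14 replicate 6 (6.76 CPM against 5.78 CPM).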

How the results depend on the processing

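Npy was the 1 gene called by edgeR under most alternatives: DESeq2 called 196 genes, a fit of the d14 groups only called 2 (Npy and Fabp7), and the July and September cohorts alone called 0 each, where the adjusted p-value of Npy was 0.24 and 0.639. Leaving out 1 library gave between 1 and 4220 genes (4220 without Control d14 replicate 1 and 3 without Control d14 replicate 3), between 1055 and 4545 separated genes (4545 without Control d14 replicate 1 and 1590 without ExpOF d14 replicate 4), and 0 to 1 genes with a cohort interaction. Fewer mice to compare make separation easier. The number of separated genes was 918 with DESeq2's size factors, 1104 without a filter, 768 with at least 10 counts per library and 825 with Control d14 replicate 4. The 33 named genes, which were chosen by their values in these libraries, kept their direction under every alternative, and 32 kept an unadjusted p-value under 0.05 in July alone, 20 in September alone and 17 with the profile score as a covariate. All 33 kept it under each other alternative, and at the adjusted threshold 22 passed with DESeq2, 33 without Control d14 replicate 1, 1 in the fit of the d14 groups only and 0 otherwise.

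A block for the replicate number gave 1 gene. The deviations of same-numbered mice correlated at -0.069, -0.153, -0.024, -0.087 and -0.1 (replicates 1, 2, 3, 5 and 6), so the samples share only a number, and no pairing was used.

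Some list medians moved by more than the spread between mice, and the cause was not tested. With Control d14 replicate 4 included they were -0.005 for all genes, -0.12 for astrocytes, -0.56 for ependymal cells, -0.41 for mural cells, -0.76 for red blood cells, -0.38 for neuropeptides, 0.18 for leptin and insulin signalling, -0.91 for ribosomal proteins, -0.80 for the respiratory chain, 0.37 for the mitochondrial genome, -0.46 for the proteasome and 0.30 for synaptic adhesion. With the profile score as a covariate they were 0.003 for all genes, astrocytes, the proteasome and endoplasmic reticulum stress, 0.062 for neurons, -0.071 for ependymal cells, -0.054 for receptors, 0.073 for immediate early genes, 0.036 for the clock, 0.017 for heat shock proteins, -0.007 for ribosomal proteins, 0.025 for the respiratory chain, 0.060 for the mitochondrial genome, 0.042 for synaptic adhesion, 0.049 for glutamate and GABA transmission and -0.022 for chromatin regulators. Length offsets gave -0.16 for ependymal cells, -0.046 for neuropeptides, 0.048 for receptors, 0.010 for leptin and insulin signalling, 0.39 for the mitochondrial genome, 0.070 for synaptic adhesion, -0.033 for postsynaptic genes and 0.098 for glutamate and GABA transmission. July alone gave 0.10 for tanycytes, -0.33 for the choroid plexus and -0.12 for the clock. September alone gave -0.035 for astrocytes, -0.18 for microglia, -0.29 for mural cells, 0.027 for receptors and 0.072 for the clock. The RNA integrity covariate gave 0.18 for receptors, and at least 10 counts per library gave 0.20 for cortex and hippocampus. Leaving out 1 library gave -0.099 to -0.045 for astrocytes, -0.073 to 0.081 for tanycytes, -0.31 to -0.16 for mural cells, -2.02 to -0.23 for the choroid plexus and 0.032 to 0.19 for receptors.

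Among genes outside the 33, the sign of the log2 fold change turned for Pmch (0.17 in September alone, 0.027 with cohort and extraction round, 0.023 with RNA integrity, 0.17 with length offsets and -0.16 to 0.11 without 1 library), Lepr (-0.29 in September alone and -0.10 with the profile score), Pomc (-0.25 with Control d14 replicate 4), Cartpt (0.16 with the profile score and 0.015 with length offsets) and Dlg1 (-0.001 with length offsets), and with the profile score for Prlr (-0.023), Camk2b (0.018), Kmt2c (-0.028), Rpl36 (0.048) and Cox6a1 (0.022). Depth limits the genes of a few CPM, such as Qrfp, Grp and Kcnj8, and with 2 September controls the smallest two-sided exact p-value within cohorts is 0.01.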
